A study of Mus musculus with 12 samples.

Results

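C-type lectin receptors are surface proteins of myeloid cells that bind sugars and lipids of microbes and molecules released by dying cells. The genes described here are 7 such receptor genes (Clec7a, Clec4d, Clec4e, Clec4n, Clec5a, Clec4a2 and Clec12a) and 2 genes whose products carry the receptors' signal, Syk and Card9, so the group is not made of receptors alone. They were chosen by symbol from the 48709 genes of the deposited count table, and all 9 were found in it. Clec7a had separated the liver time points in earlier work on these libraries. Its values are therefore given as a description with no test in any comparison, and counts of called genes are over the other 8.

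Neutrophils were sorted from male C57BL/6N mice of 8 to 10 weeks, and their RNA was sequenced in bulk. Control splenic neutrophils came from the spleens of untreated mice (n = 3). The 24-hour neutrophils (n = 4) and the 72-hour neutrophils (n = 5) came from livers taken at those times after an injection of carbon tetrachloride (CCl4, 1 mL/kg), a toxin that kills hepatocytes. No liver of an untreated mouse and no spleen of a treated mouse was analysed here. Organ, injury and the way the cells were released (enzymes and a density gradient for liver, mechanical dissociation for spleen) therefore change together and cannot be told apart in the comparisons with spleen. In bulk RNA, fewer cells that express a gene and less RNA of it per cell cannot be told apart either.

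The receptors are of 2 kinds. Activating receptors signal through a tyrosine motif of their own (Clec7a, known as dectin-1, which binds fungal glucans) or through the adaptors encoded by Fcer1g (Clec4d, Clec4e and Clec4n) and Tyrobp (Clec5a). The kinase Syk is then recruited, and the scaffold Card9 links it to Bcl10 and Malt1 and on to NF-kB, which turns on cytokine and chemokine genes. Inhibitory receptors (Clec4a2 and Clec12a) carry a motif that recruits phosphatases and dampens such signals. In neutrophils these receptors are known for the uptake and killing of fungi and for sensing dead cells.

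Between 1267089 and 3017403 reads per library were counted on genes, so that 1 CPM (1 read in 1000000 counted reads) is 1.27 to 3.02 reads. These were 2.71% to 3.18% of the uniquely aligned reads of a library, and each of the 20 genes with the highest counts shares exon bases with a gene of the other strand. Such an overlap is present for 40.1% of the 12488 genes tested. It is absent for 8 of the 9 genes described here, and Card9 shares 87 exon bases with Gm13562. The kit marks strand and the counter's setting is not given, so these counts may come from reads of the strand opposite to the genes. Each level, order of levels and marker at 0 below would then describe those reads, which was not tested. The 72-hour replicates 2 and 3 had 1.91% and 1.98% unaligned reads against 49.6% to 50.7% in the other 10 libraries. Markers of neutrophils were detected in all libraries (S100a8 at 82 or more and Csf3r at 393 or more reads), whereas Ly6g, the sorting marker, had 3 to 104 reads. Of 8 such markers S100a8 and S100a9 were lower than spleen at 24 hours, both and Ly6g were lower at 72 hours, and Csf3r was higher at 72 than at 24 hours. S100a8 was at 80.1 to 1372 CPM in spleen, 59.8 to 209 at 24 hours and 142 to 366 at 72 hours, and with limma-voom it was not called (adjusted p = 0.0663 and 0.459). S100a9 was at 339 to 3969 CPM in spleen, and limma-voom did not call it at 72 hours (adjusted p = 0.260, against 0.0398 at 24 hours). The part of these markers in the levels of the receptors was not tested.

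The receptor genes lie in 3 places on chromosome 6 of the mouse genome (build GRCm38). Clec4n, Clec4d and Clec4e are adjacent within 60.0 kb (123229843 to 123289870), and Clec4a2 lies before them from 123106428. Clec12a (129342691 to 129365303) and Clec7a (129461591 to 129472779) bound a second group of lectin genes. Clec5a lies apart (40574894 to 40585821), Syk is on chromosome 13 and Card9 on chromosome 2. The annotation used here (GENCODE M21) lists Clec7a as a polymorphic pseudogene and the others as protein coding.

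Promoters from RefSeq (build GRCm38.p6) were found for 8 of the 9 genes. The 250 bases before the start are shown for the genes on which the results turn, 5′ to 3′ on the strand of the gene: Clec4d and Clec4e (which were both called higher at 72 hours), Clec12a (the gene with the largest fold difference of the 9) and Clec7a (the first of its starts). Capitals mark matches, on either strand, to GGG and TTTCC with 2 bases between them (NF-kB), GAGGAAG (PU.1), TTGCNNAA (C/EBP) or TGANTCA (AP-1).
Clec4d, chr6:123261857-123262106, plus strand: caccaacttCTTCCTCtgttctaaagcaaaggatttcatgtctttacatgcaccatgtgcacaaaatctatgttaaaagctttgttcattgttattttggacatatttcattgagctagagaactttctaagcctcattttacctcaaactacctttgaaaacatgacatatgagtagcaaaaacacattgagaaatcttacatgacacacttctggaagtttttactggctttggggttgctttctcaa
Clec4e, chr6:123289872-123290121, minus strand: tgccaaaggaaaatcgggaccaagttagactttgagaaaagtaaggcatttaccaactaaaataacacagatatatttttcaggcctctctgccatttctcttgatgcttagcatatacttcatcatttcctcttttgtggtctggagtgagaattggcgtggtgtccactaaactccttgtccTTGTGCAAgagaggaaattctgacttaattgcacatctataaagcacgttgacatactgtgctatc
Clec12a, chr6:129349994-129350243, plus strand: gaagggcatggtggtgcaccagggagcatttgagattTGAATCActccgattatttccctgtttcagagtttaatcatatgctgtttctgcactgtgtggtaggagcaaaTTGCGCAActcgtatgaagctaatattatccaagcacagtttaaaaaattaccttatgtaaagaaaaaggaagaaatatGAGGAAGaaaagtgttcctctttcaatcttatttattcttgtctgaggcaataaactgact
Clec7a, chr6:129472780-129473029, minus strand: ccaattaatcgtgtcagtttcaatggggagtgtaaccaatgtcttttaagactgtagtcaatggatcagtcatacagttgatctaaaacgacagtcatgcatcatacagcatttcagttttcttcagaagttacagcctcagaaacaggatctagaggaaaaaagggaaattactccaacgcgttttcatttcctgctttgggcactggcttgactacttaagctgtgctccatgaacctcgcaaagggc
The window of Clec4d held 1 PU.1 match and that of Clec4e held 1 C/EBP match. Clec12a held 1 match each to PU.1, C/EBP and AP-1, and its RefSeq start lies inside the longer GENCODE gene. Clec5a held 2 PU.1 matches, and the windows of Clec7a, Clec4a2, Syk and Card9 held none of these letters. Over 32851 promoter windows of the same length, 10.6% held the PU.1 letters, 9.56% the C/EBP letters, 6.75% the AP-1 letters and 1.41% the NF-kB letters. No motif overlapped another in the windows shown. A match is a description of letters only.

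To compare levels between genes, normalized CPM were divided by exon length. In control splenic neutrophils Clec4d (58.8 ± 4.48 CPM per kb, SD, n = 3) and Clec7a (53.9 ± 1.05) were the highest of the 9, and their ranges overlapped. Clec4n (23.5 ± 11.8), Card9 (18.3 ± 6.05), Syk (17.8 ± 1.23) and Clec4e (16.1 ± 1.2) followed, each overlapping the next, then Clec5a (11.9 ± 2.79). The inhibitory receptors were lowest, with Clec4a2 at 4.80 ± 1.81 and Clec12a at 4.44 ± 2.13 CPM per kb.

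The order differed at 24 hours (n = 4). Clec4d stayed first (89.8 ± 34.6 CPM per kb), and Clec4n (51.0 ± 12.3) stood above Clec7a (28.1 ± 6.04) with no overlap. Clec7a and Clec4e (27.3 ± 1.84) overlapped. Card9 was at 8.33 ± 1.62, below Syk (18.2 ± 5.15) and Clec5a (12.3 ± 4.38), and Clec12a was last at 0.477 ± 0.209 CPM per kb. At 72 hours (n = 5) Clec4d (129 ± 21.8) did not overlap Clec7a (78.5 ± 18.4), whereas Clec7a, Clec4n (76.5 ± 26.9) and Clec4e (33.7 ± 8.24) each overlapped the next. Clec4a2 and Clec12a again ended the order, at 2.16 ± 0.706 and 2.01 ± 0.857 CPM per kb.

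Summed per length, the 5 activating receptors ranged from 159 to 171 CPM per kb in control splenic neutrophils, from 183 to 233 in 24-hour neutrophils and from 299 to 366 in 72-hour neutrophils. With Clec7a included, the sums of the 3 groups did not overlap. Clec7a made up 32.9% ± 1.08 of this sum in spleen, 13.8% ± 4.12 at 24 hours and 23.6% ± 5.43 at 72 hours (SD, n = 3, 4 and 5). The share of Clec4n was 14.2% ± 6.55, 25.2% ± 8.54 and 23.2% ± 8.48 in the same order, and that of Clec4d was 35.9% ± 4.01, 42.1% ± 11.7 and 38.9% ± 4.68. These sums contain Clec7a, which had separated the time points in earlier work, and are given without a test. Sums without Clec7a were taken in normalized CPM, not scaled by length. They were 250.1 to 257.9 in spleen, 341.6 to 456.6 at 24 hours and 455.7 to 600.8 at 72 hours, and the liver groups overlapped.

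**Figure D1:**
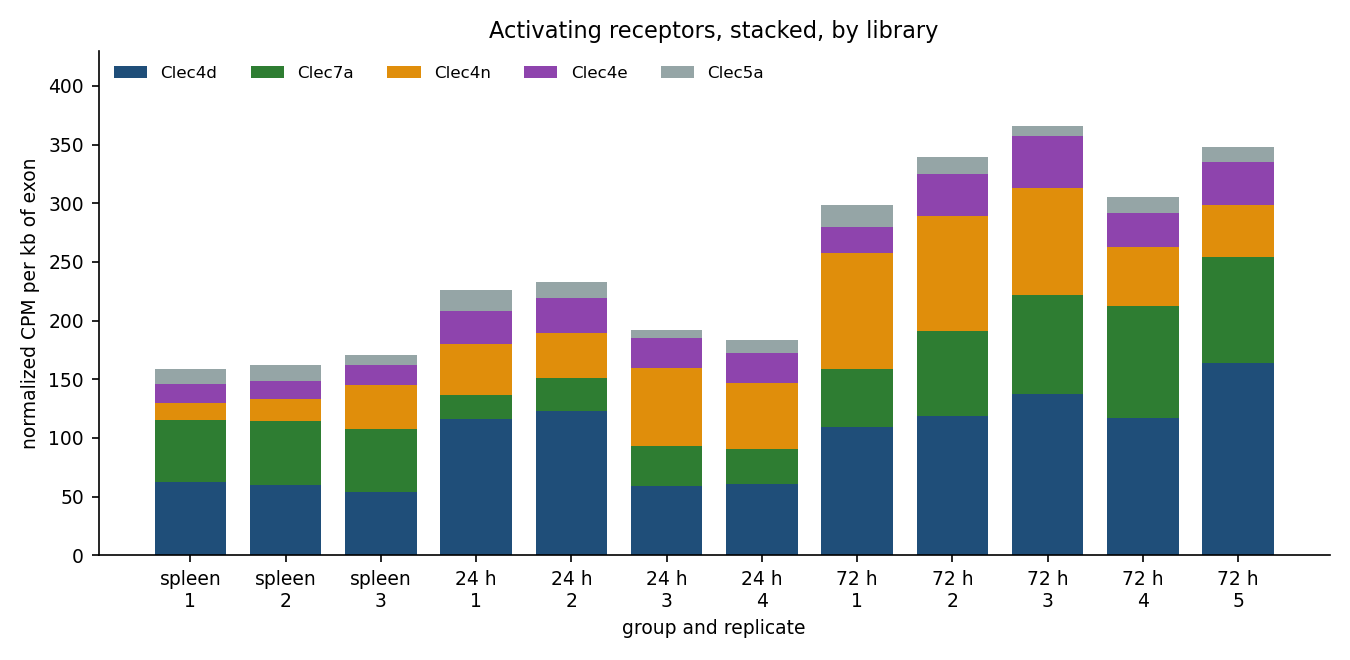
Stacked bars give the normalized CPM per kb of exon of the 5 activating receptors in each of the 12 libraries, labelled by group and replicate. The total bar is 159 to 171 in spleen, 183 to 233 at 24 hours and 299 to 366 at 72 hours, and the segment of Clec7a is smallest in the 24-hour libraries.

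The first comparison asked how 24-hour neutrophils, which enter the necrotic liver, differ from control splenic neutrophils. Clec4n was higher, and the inhibitory receptor Clec12a and the scaffold Card9 were lower. These were 3 of the 8 genes tested (1 higher and 2 lower), beside 9.75% of all 12488 genes, 5.35% higher and 4.4% lower (edgeR quasi-likelihood test, Benjamini-Hochberg adjusted p under 0.05, log2 fold change 0.5 or more in size). The median log2 difference over the 8 was 0.04 against -0.23 over all genes tested. The values of the groups did not overlap for 4 of the 8 genes, against 22.8% of all genes.

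The second comparison set 72-hour neutrophils, which are present during early repair, against the same 3 spleen libraries. The neighbours Clec4n, Clec4d and Clec4e were all higher, which made 3 of 8 beside 5.33% of all genes (2.63% higher, 2.71% lower). The median log2 difference over the 8 was 0.19 against -0.02 over all genes. For Clec4n, Clec4d, Clec4e and Clec4a2 the groups did not overlap (4 of 8, against 12% of all genes). Both comparisons share the spleen libraries and are not independent.

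Between the time points, Clec12a was the only gene of the 8 called, and it was higher at 72 hours (4.49% of all genes were called, 1.65% higher and 2.84% lower, or 36.7% and 63.3% of the calls, which was 25.6% and 74.4% with upper-quartile scaling). The median log2 difference over the 8 was 0.53 against 0.18 over all genes. Clec12a was also the only 1 of the 8 with no overlap, against 9.51% of all genes.

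**Figure D2:**
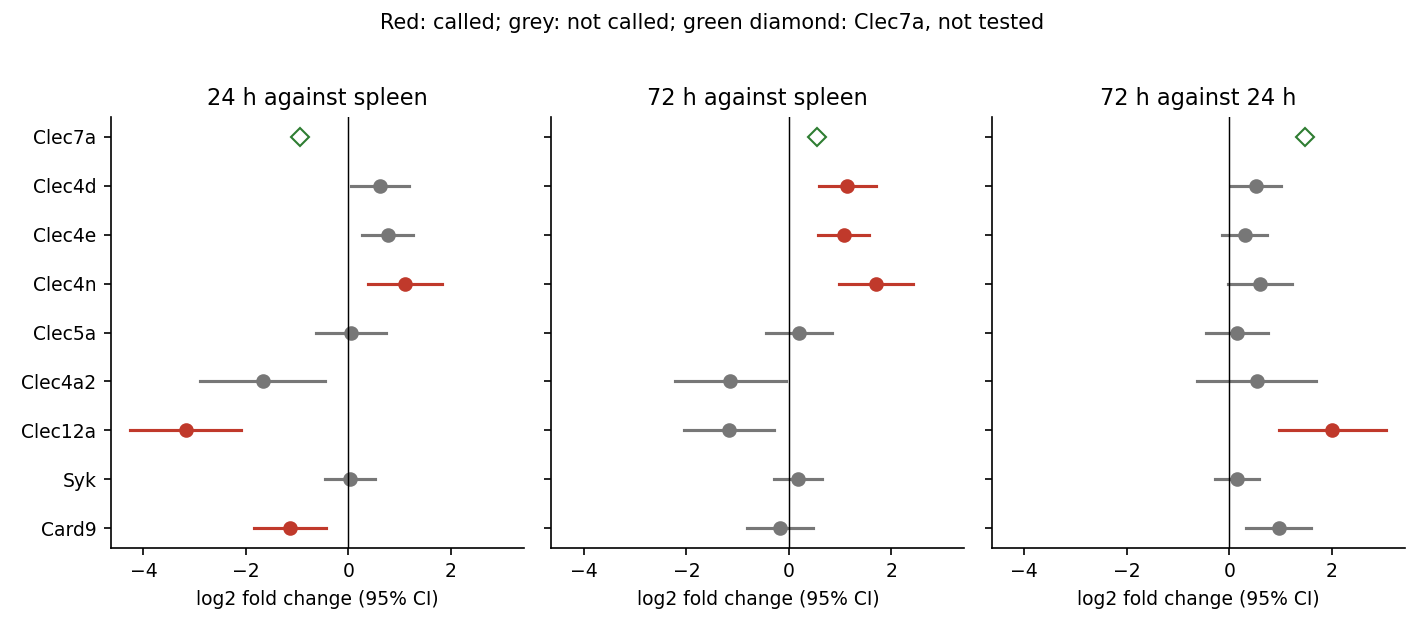
Log2 fold changes (horizontal axis) of the 9 genes in the 3 comparisons, with 95% confidence intervals from edgeR for the 8 genes tested (red: called, grey: not called) and without one for Clec7a (green diamond). Clec4n, Clec4d and Clec4e lie right of 0 at 72 hours against spleen, and Clec12a lies left of 0 at 24 hours and right of 0 between the time points.

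Clec4n encodes dectin-2, which binds mannans of fungi. Its normalized CPM was 20.9, 26.8 and 52.4 in the spleen libraries, 61.8, 55.2, 94.1 and 78.8 at 24 hours and 140.4, 139, 129, 71.6 and 62.9 at 72 hours (replicates in order). Every liver library was above every spleen library. The log2 fold change against spleen was 1.11 at 24 hours (SE 0.35, 95% CI 0.38 to 1.83, adjusted p = 0.0484) and 1.70 at 72 hours (SE 0.34, 95% CI 0.98 to 2.41, adjusted p = 0.00328). The 24-hour call lay close to the threshold. It was lost without any 1 of the 24-hour libraries, without spleen replicate 1 or 2 and without 72-hour replicate 1, 2 or 3 (adjusted p = 0.0504 to 0.209) and with limma-voom (0.0569), and the 72-hour call was kept in all 12 such fits.

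For Clec4n the 72-hour libraries formed a higher and a lower set, with replicates 1 to 3 at 129 to 140.4 CPM and replicates 4 and 5 at 62.9 to 71.6. The lower set lies within the 24-hour range. Card9 had the same split with no overlap (37.3 to 55.1 against 20.1 to 32.4 CPM), and Clec7a had the opposite one (130.1 to 223 against 239 to 251). The other genes overlapped between the sets. The split was chosen after the values were seen, and the share of all genes that show it was not counted. It is not particular to these genes. Library pairs differed by 6.72 to 12.9 times the sampling noise (chi-square per degree of freedom) within the sets and by 20.7 to 38.1 between them. Calls over all genes against spleen (666) were 169 without replicates 1 to 3 and 1173 without 4 and 5. Without replicates 1 to 3 the log2 fold change of Clec4n at 72 hours was 1.003 (adjusted p = 0.272), and without replicates 4 and 5 it was 2.03. Between the time points Clec4n differed by 0.59 (SE 0.30, 95% CI -0.03 to 1.21, adjusted p = 0.264).

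Clec4d encodes a receptor that pairs with the product of Clec4e. Its normalized CPM was 100.2, 95.7 and 86.2 in spleen, 186, 197, 94.1 and 97.7 at 24 hours and 175, 190.0, 219.8, 188 and 262 at 72 hours. At 24 hours replicates 1 and 2 stood above spleen, whereas replicates 3 and 4 lay within the spleen range. At 72 hours every library stood above spleen. The log2 fold change was 0.61 at 24 hours (SE 0.27, 95% CI 0.05 to 1.18, adjusted p = 0.158) and 1.14 at 72 hours (SE 0.27, 95% CI 0.58 to 1.69, adjusted p = 0.0115). At 72 hours it was no longer called without spleen replicate 1 (adjusted p = 0.0526) or 2 (0.0665) and without 72-hour replicates 1 to 3 (0.0572).

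Clec4e encodes mincle, which senses mycobacterial glycolipids and products of dead cells. It was at 79.8, 73.9 and 85.9 CPM in spleen, at 141, 145, 126 and 129.8 at 24 hours and at 113, 175, 221, 144 and 182 at 72 hours. Both liver groups lay wholly above spleen, and they overlapped each other. The log2 fold change at 72 hours was 1.07 (SE 0.24, 95% CI 0.57 to 1.56, adjusted p = 0.00713), a call lost without spleen replicate 2 (adjusted p = 0.0676) or without 72-hour replicates 2 and 3 (0.0745). At 24 hours it was 0.76 (SE 0.24, 95% CI 0.26 to 1.27), and the adjusted p of 0.05004 lay just outside the threshold. Leaving out 72-hour replicate 1, 3, 4 or 5 brought it to 0.0437 to 0.0479, and the size factors of DESeq2, upper-quartile scaling and the Wald test of DESeq2 gave 0.0423, 0.0286 and 0.0114. It was 0.0539 with limma-voom, 0.0931 with no filter, 0.0967 over genes free of opposite-strand overlap, and 0.142 and 0.171 without spleen replicate 1 or 2.

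Clec5a encodes a receptor that signals through the adaptor of Tyrobp. Its normalized CPM ranged from 33.4 to 53.6 in spleen, from 27.6 to 67.5 at 24 hours and from 30.6 to 72.1 at 72 hours. The 3 groups overlapped widely. The 95% confidence interval of the log2 difference from spleen was -0.62 to 0.73 at 24 hours (adjusted p = 0.946) and -0.44 to 0.84 at 72 hours (adjusted p = 0.841). Differences inside these intervals remain possible, and the intervals are not limits of detection.

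Clec7a was at 139, 145 and 143 CPM in the spleen libraries, at 53.0, 73.8, 91.2 and 78.8 at 24 hours and at 130.1, 192, 223, 251 and 239 at 72 hours. All 24-hour libraries lay below all others, and at 72 hours replicate 1 lay below spleen and replicates 2 to 5 above it. The log2 difference was -0.94 (SE 0.25) at 24 hours and 0.54 (SE 0.24) at 72 hours against spleen, and 1.48 (SE 0.23) between the time points. At 24 hours Clec4e and Clec4n lay wholly above spleen, on the other side of it from Clec7a.

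**Figure D3:**
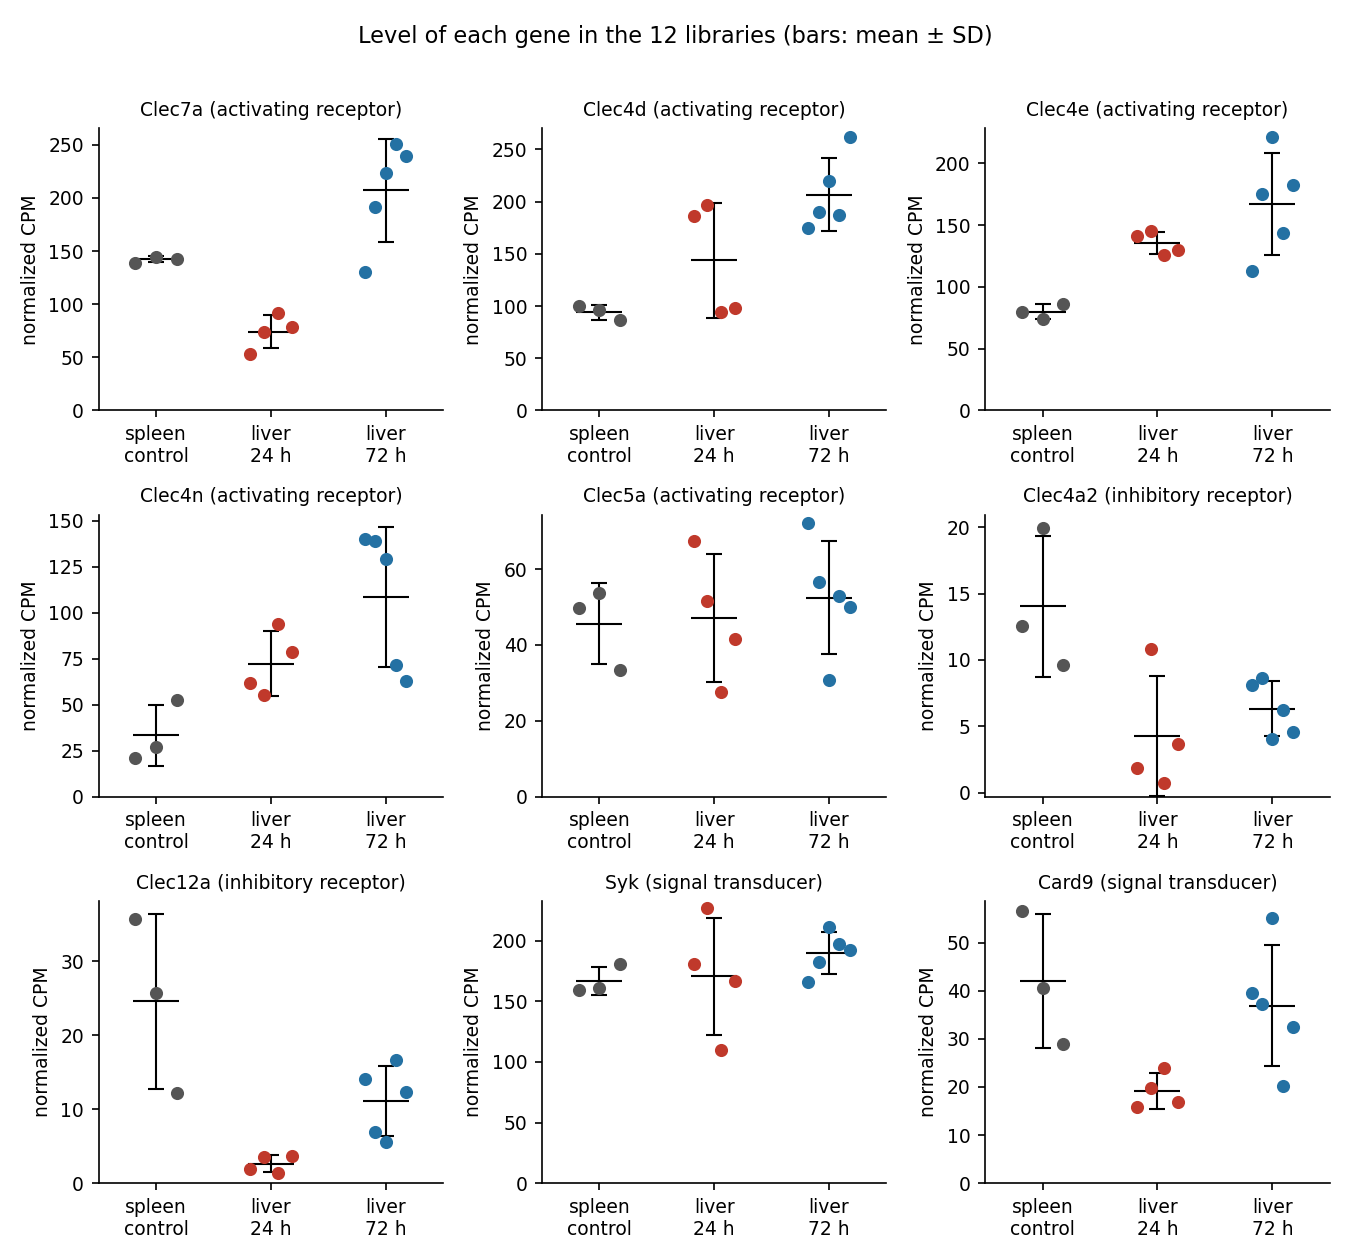
Normalized CPM of each of the 9 genes (vertical axes) in the 3 spleen, 4 24-hour and 5 72-hour libraries, with 1 point per library and black bars for the mean ± SD. Clec4n, Clec4d and Clec4e are above spleen in every 72-hour library, Clec7a and Card9 are lowest at 24 hours, and Clec12a at 24 hours lies between 1.41 and 3.65.

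Clec12a encodes an inhibitory receptor that binds uric acid crystals of dead cells. It had 77, 71 and 38 reads in the spleen libraries, 3, 6, 2 and 5 at 24 hours and 26, 20, 18, 24 and 19 at 72 hours. This is 35.7, 25.7 and 12.2 CPM in spleen, 1.89, 3.60, 1.41 and 3.65 at 24 hours and 14.1, 6.91, 5.57, 16.7 and 12.3 at 72 hours. The 24-hour libraries lay below all of the others, and the 72-hour libraries overlapped spleen. Clec12a was 9.05-fold lower than spleen at 24 hours (log2 fold change -3.18, SE 0.52, 95% CI -4.27 to -2.09, adjusted p = 4.58e-04), a call kept in all 12 fits that leave out a library.

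At 72 hours its log2 difference from spleen was -1.17 (SE 0.42, 95% CI -2.05 to -0.29, adjusted p = 0.125). Of the fits that leave out a library, it passed in that without spleen replicate 3 (0.0367). From 24 to 72 hours Clec12a rose 4.02-fold (log2 2.01, SE 0.51, 95% CI 0.96 to 3.06, adjusted p = 0.0258). That call was lost without 24-hour replicate 1, 2 or 3 or 72-hour replicate 1 (adjusted p = 0.0533 to 0.0871), without 72-hour replicates 4 and 5 together (0.0696) and with limma-voom (0.130), and it rests on 16 reads in all at 24 hours.

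Clec4a2 encodes an inhibitory receptor with the same kind of motif. Its reads were 27, 55 and 30 in spleen, 3, 18, 1 and 5 at 24 hours and 15, 25, 13, 9 and 7 at 72 hours, which is 12.5, 19.9 and 9.65 CPM, 1.89, 10.8, 0.707 and 3.65 CPM and 8.13, 8.64, 4.02, 6.25 and 4.54 CPM. The 24-hour replicate 2 reached into the spleen range, and every 72-hour library lay below it. The log2 difference from spleen was -1.67 at 24 hours (SE 0.59, 95% CI -2.89 to -0.46, adjusted p = 0.0742) and -1.14 at 72 hours (SE 0.52, 95% CI -2.23 to -0.05, adjusted p = 0.258). The first was called without 24-hour replicate 2 (-2.73, adjusted p = 0.00859), with limma-voom (-2.05, adjusted p = 0.0410) and with no filter on low counts (0.0350).

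The summed markers of immature neutrophils were lower in every liver library than in any spleen library. Of the inhibitory receptors, only Clec12a at 24 hours was called lower than spleen. The summed level of the markers (8 genes, led by Ngp and Ltf) was 3982, 3939 and 600 CPM in the spleen libraries, 16.0 to 77.6 at 24 hours and 10.3 to 42.4 at 72 hours. Of the 5 markers that were tested, 4 were lower than spleen at both times. Elane was at 0 throughout, and Mpo and Ctsg had at most 2 reads. Prtn3 had at most 8 reads in spleen, 17 at 24 hours and 14 at 72 hours. Spleen replicate 3, which had the lowest sum, was also the lowest spleen library for Clec12a and Clec4a2. The same library was the lowest for Clec4d, Clec5a and Card9 too, and the highest for Clec4e, Clec4n and Syk. The 72-hour sums were not above the 24-hour range, whereas Clec12a was higher at 72 hours in every library. Their part in the levels of the receptors was not tested.

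Markers of other cells that use these receptors were measured too, and some of their sums exceeded the levels of Clec12a and Clec4a2. Of the 12 macrophage and Kupffer cell markers 3 passed the filter, and Clec4f and C1qa were at 0 in all libraries. Vsig4 had up to 102 reads in spleen, 36 at 24 hours and 42 at 72 hours. Adgre1 had 9 to 27 reads, where Clec12a had 2 to 77. The sum of the 12 was 19.6 to 44.4 CPM in spleen, 21.2 to 38.2 at 24 hours and 13 to 24.9 at 72 hours. Cd163 was lower at 72 hours (up to 2.42 CPM) than at 24 hours (5.11 to 9.60, adjusted p = 0.0318). The monocyte markers summed to 109 to 137, 133 to 177 and 114 to 182 CPM, with 66.9% to 97.6% of the sum from Csf1r, and Ccr2 had at most 3 reads. Ly6c2 made up as much as 32.1% of it and was the monocyte marker called, lower than spleen (9.97 to 40.8 CPM) at 24 hours (1.46 to 11.4, adjusted p = 0.00472) and at 72 hours (2.71 to 4.54, adjusted p = 8.44e-04). The dendritic cell markers summed to 44.1 to 143, 14.5 to 56.2 and 54.5 to 96.6 CPM, mostly from the lectin gene Clec9a, and Flt3 and Xcr1 had at most 2 and 4 reads. H2-Eb1, a gene of antigen presentation in that list, was higher at 72 hours (1.30 to 12.4 CPM) than in spleen (up to 0.322, adjusted p = 0.0106). The dendritic sums at 24 hours overlapped those of both other groups, and their part in the level of Clec12a was not tested. Markers of hepatocytes, B cells, T and NK cells, erythroid cells and endothelial cells each summed to at most 61.2 CPM in any library. The hepatocyte sums were 2.32 to 6.11 CPM in spleen, 14.9 to 19.8 at 24 hours and 3.24 to 29.1 at 72 hours. Of the 4 tested only Apoa2 was called, higher at 24 hours (12.7 to 19.6 CPM) than in spleen (edgeR, adjusted p = 0.00888). Alb had at most 2 reads at 24 hours and 33 at 72 hours.

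**Figure D4:**
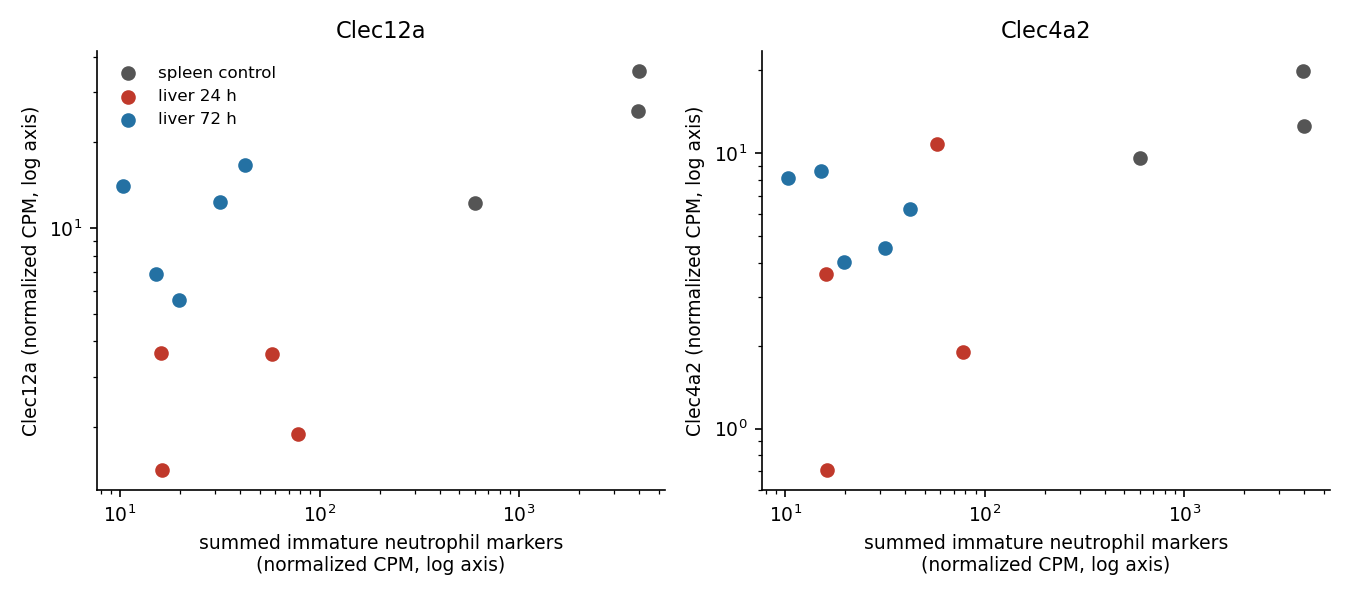
Normalized CPM of Clec12a (left) and Clec4a2 (right) against the summed level of 8 immature neutrophil markers, both axes logarithmic, with 1 point per library. The spleen libraries lie at 600 to 3982 CPM of markers and the liver libraries at 10.3 to 77.6, where Clec12a ranges from 1.41 to 16.7.

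Between Clec12a and Clec7a on chromosome 6, the annotation lists 5 further genes (Clec12b, Clec1b, Clec9a, Gm43914 and Clec1a), and all 5 were tested. They were looked at after the values of Clec12a were seen. Gm43914 lies inside the span of Clec9a, so the 5 are not all separate. Each had a negative log2 difference from spleen at 24 hours (-1.96 to -0.85) and a positive one from 24 to 72 hours (0.85 to 1.45), and these comparisons share the 24-hour libraries. The medians over all genes tested leaned the same way (-0.23 and 0.18). At 72 hours against spleen the 5 were at -0.93 to -0.0017 and none was called. The share of all genes called at 24 hours was 9.75%. Of the 5, Clec12b passed the test at 24 hours (16.5 ± 6.83 CPM, n = 4, against 63.8 ± 32.5, n = 3, log2 fold change -1.96, SE 0.48, adjusted p = 0.0111), and without spleen replicate 3 it did not (0.0632). From Clec4a2 to Clec4e no lectin gene other than the 4 described here was tested, and Clec4b2 had at most 4 reads.

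Syk, the kinase shared by the activating receptors, was at 159.6 to 180.4 CPM in spleen, 109.6 to 227 at 24 hours and 166 to 211 at 72 hours. The groups overlapped. The 95% confidence interval of the log2 difference from spleen was -0.46 to 0.52 at 24 hours (adjusted p = 0.953) and -0.29 to 0.65 at 72 hours (adjusted p = 0.780), and between the time points it was -0.28 to 0.58 (adjusted p = 0.723).

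Card9, the scaffold after Syk, was at 56.6, 40.6 and 28.9 CPM in spleen, at 15.8, 19.8, 24.0 and 16.8 at 24 hours and at 39.6, 37.3, 55.1, 20.1 and 32.4 at 72 hours. The 24-hour libraries lay below all spleen libraries. The log2 fold change at 24 hours was -1.13 (SE 0.34, 95% CI -1.84 to -0.43, adjusted p = 0.0376), a 2.19-fold lower level. The call was lost without 24-hour replicate 1, 2 or 4 or spleen replicate 1 or 2 (adjusted p = 0.0678 to 0.199) and with limma-voom (0.0677). At 72 hours Card9 was within the spleen range except in replicate 4 (log2 difference -0.17, 95% CI -0.82 to 0.48, adjusted p = 0.875). From 24 to 72 hours it differed by 0.96 (SE 0.31, 95% CI 0.32 to 1.60, adjusted p = 0.0759), which passed without 72-hour replicate 4 (0.0354) or without replicates 4 and 5 (0.0217).

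The gene on the opposite strand of Card9, Gm13562, had higher counts than Card9 (525 ± 93.9 CPM in spleen, 673 ± 99.7 at 24 hours and 659 ± 81.5 at 72 hours). It was not called in any of the 3 comparisons (adjusted p = 0.285, 0.450 and 0.950), and its log2 difference at 24 hours was positive (0.36). The lower level of Card9 at 24 hours was thus not seen in Gm13562. Should the counts come from the opposite strand, reads of Card9 over the shared 87 bases would fall on Gm13562. Which gene holds the reads of Card9 was not tested.

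The partners of the receptors were described from 5 lists. Of the adaptors and kinases that lie between receptor and Card9, 11 of 12 were tested. Of these, 1 was called at 24 hours against spleen and 1 between the time points, beside 9.75% and 4.49% of all genes. Tyrobp, the adaptor of Clec5a, was 83.4 ± 12.9 CPM at 24 hours, below spleen (155 ± 29.3) and 72 hours (170 ± 33.1). It fell from spleen to 24 hours by 0.89 on the log2 scale (SE 0.24, adjusted p = 0.0201), a call lost without 24-hour replicate 4 or spleen replicate 1 or 2 (0.0675 to 0.117). It was higher at 72 than at 24 hours by 1.02 (SE 0.22, adjusted p = 0.0106), which was kept in all fits that leave out a library. Fcer1g, the adaptor of Clec4d, Clec4e and Clec4n, was at 36.5 ± 17.8, 63.5 ± 16.5 and 46.2 ± 13.8 CPM and not called. No gene of this list was called by edgeR or limma-voom at 72 hours against spleen, where 3 had an unadjusted p under 0.05 and DESeq2 called 1. The median log2 difference of the list was 0.14, 0.18 and 0.16 in the 3 comparisons, against -0.23, -0.02 and 0.18 over all genes.

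In the Card9 complex and NF-kB list 11 of 13 genes were tested, and 1 was called in each comparison. Over all genes 9.75%, 5.33% and 4.49% were called, so these counts are no result about the list. Traf6, a ubiquitin ligase of the complex, fell at 24 hours by 1.52 on the log2 scale (7.96 ± 4.98 against 22.6 ± 4.82 CPM, adjusted p = 0.0337). That call was lost without 24-hour replicate 1 or 2 or spleen replicate 1 or 2 (0.0633 to 0.138). Ikbkg, a subunit of the kinase that releases NF-kB, was lower at 72 hours than in spleen (-1.14, adjusted p = 0.0442) and than at 24 hours (-1.55, adjusted p = 0.00745). It shares 418 exon bases with a gene on the opposite strand, and without 72-hour replicates 2 and 3 neither call was kept (0.299 and 0.0564). Against spleen it was also lost without 72-hour replicate 1, 2 or 3, spleen replicate 1 or 2, or 24-hour replicate 2 or 4 (0.0576 to 0.243). Bcl10 and Malt1, the partners of Card9, were at 15.5 and 11.5 CPM in spleen, 16.6 and 15.5 at 24 hours and 20.9 and 18.2 at 72 hours on average, and were not called. The list medians were 0.06, 0.21 and 0.33.

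Among the phosphatases and other brakes, 7 of 8 were tested. In each comparison 1 was called, beside 9.75%, 5.33% and 4.49% of all genes. Tnfaip3, a ubiquitin editor that limits NF-kB, rose from 2.79 ± 1.71 CPM in spleen to 25.9 ± 8.79 at 24 hours (log2 fold change 3.17, SE 0.69, adjusted p = 0.00464) and 24.7 ± 20.6 at 72 hours (3.14, SE 0.67, adjusted p = 0.00482). At 72 hours it was not called without spleen replicate 2 (0.0506) or 72-hour replicates 2 and 3 (0.122), nor with limma-voom (0.0590). Ptpn6, the phosphatase SHP-1 that inhibitory receptors recruit, was higher at 72 than at 24 hours by 0.93 (SE 0.23, adjusted p = 0.0248). It shares 195 exon bases with an opposite gene, and the call was lost without 24-hour replicate 1, 3 or 4, 72-hour replicate 1, 2 or 3 (0.0523 to 0.0745), or 72-hour replicates 2 and 3 together (0.114). The list medians were -0.43, 0.35 and 0.77.

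The list of genes known as targets of the pathway was chosen with earlier results of these data known. The study itself reports Il12a, Tnf, Il1b, Ptgs2 and Ccl3 as raised in liver neutrophils. The shares given here are therefore a description and no test of the pathway. Of the 17 target genes, 13 were tested. Higher than spleen were 8 at 24 hours and 9 at 72 hours, beside 5.35% and 2.63% of all genes, and limma-voom called 5 and 8. Between the time points 2 were higher and 1 was lower at 72 hours. Ptgs2, which makes prostaglandins, was at 3.87 ± 1.70 CPM in spleen, 82.1 ± 51.5 at 24 hours and 371 ± 246 at 72 hours, and it was higher at 72 than at 24 hours by 2.19 on the log2 scale (adjusted p = 0.00718, or 0.0686 without 72-hour replicates 2 and 3). By the same test Il12a, a cytokine subunit, went the other way, from 20.8 ± 6.30 CPM at 24 hours to 4.88 ± 3.85 at 72 hours (log2 fold change -2.00, SE 0.50, adjusted p = 0.0257), against 0.638 ± 0.740 in spleen. That fall was not called without 24-hour replicate 1, 2 or 4, 72-hour replicate 1 or 3 (0.0609 to 0.0742), or 72-hour replicates 4 and 5 together (0.0622). Il1b was 154 ± 21.6, 207 ± 60.8 and 678 ± 349 CPM, and it rose from 24 to 72 hours by 1.71 (adjusted p = 0.00223). The chemokine Cxcl2 was at 0.322 to 0.725 CPM in spleen, at 117 to 232 at 24 hours and at 65.3 to 653 at 72 hours. The list medians were 3.46 at 24 hours (2.60 with Egr3, at 0 in spleen, set at a floor of 3 reads over the group) and 2.92 at 72 hours. These genes have many other inducers, and Il6, Il12b and Csf2 had no reads in any library.

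Of 35 other lectin receptor genes 16 were tested, and the 19 left out had at most 5 reads in any library. At 24 hours Clec12b and Ly75 were lower than spleen, and at 72 hours Ly75 and Cd302 were. These were 2 of 16 each time, beside 9.75% and 5.33% of all genes called. Cd302 fell from 160 ± 54.1 to 72.7 ± 17 CPM (log2 fold change -1.14, adjusted p = 0.00676), which was lost without spleen replicate 3 (0.0530) or 72-hour replicates 2 and 3 (0.0624). Ly75 was at 3.86 to 31.5 CPM in spleen, up to 1.46 at 24 hours and 1.24 to 2.78 at 72 hours, and it shares 249 exon bases with an opposite gene. Between the time points none of the 16 was called by edgeR or limma-voom, 4 had an unadjusted p under 0.05 and DESeq2 called 1. The list medians were -0.52, -0.00237 and 0.80.

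**Figure D5:**
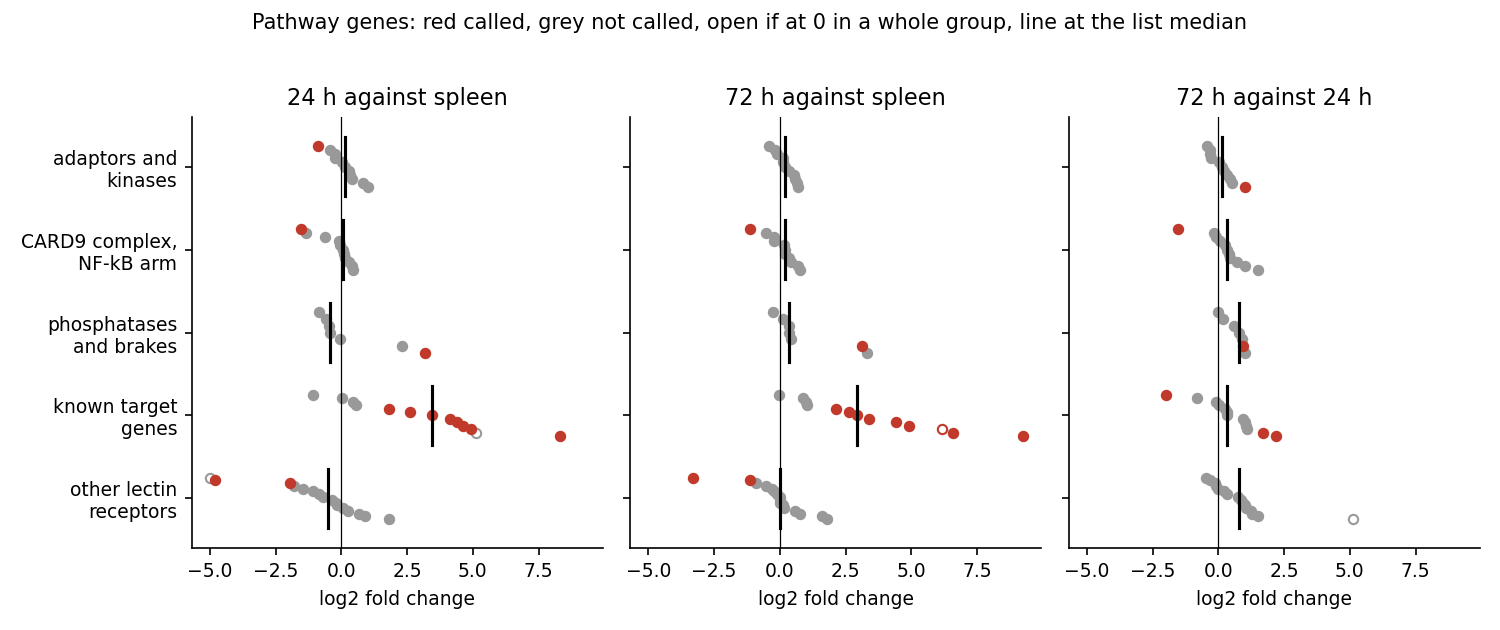
Log2 fold changes (horizontal axis) of the tested genes of the 5 lists in the 3 comparisons, with 1 point per gene (red: called, grey: not called, open: at 0 in every library of a group, where the fitted value depends on the prior count) and a line at the list median. Known targets have medians of 3.46 and 2.92 against spleen, and the other lists lie between -0.52 and 0.35 there.

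The genes whose profile over the 12 libraries was most like that of Clec7a were ranked by the Euclidean distance of standardized log2 CPM. Trpm2, an ion channel gene, was closest (distance 1.22 against a median of 4.39 over all tested genes), at 89.6 ± 24.8 CPM in spleen, 40.4 ± 5.30 at 24 hours and 104 ± 22.6 at 72 hours. The next were Gm9530 (1.34), 4931406C07Rik (1.36), Trim72 (1.38) and Rtn4ip1 (1.44), all with mean levels of at most 6.72 CPM. Within the 9 genes, Clec12a (2.93) and Card9 (2.98) were closest to Clec7a, and Clec4d and Clec4e formed the closest pair (2.07), followed by Clec4a2 and Clec12a (2.18). The libraries shared by these profiles differ in depth, and no test was made.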

How the data were processed

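RNA of sorted neutrophils (CD45+ CD11b+ Ly6G-high Ly6C-intermediate, purity over 95%) was measured in 12 libraries, grouped by the labels' tissue and time. The authors made stranded mRNA libraries, aligned paired reads to GRCm38 with STAR 2.7.9a (submitters' processing notes) and deposited raw HTSeq-count read counts per gene, without normalization. The strand setting of the counter is not given in the sources used here. Of 48709 gene rows 48349 matched GENCODE M21. The 5 summary rows, which hold the reads on no gene (96.8% to 97.3% of uniquely aligned reads) and those not uniquely assigned, stayed out of library sizes and tests.

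Genes over 1 CPM in at least 3 libraries were kept (12488, all 9 genes described among them), scaled by TMM (factors 0.740 to 1.24, lowest at 24 hours) and tested in 1 fit of all libraries with edgeR 4.0.16's quasi-likelihood test in R 4.3.3, with Benjamini-Hochberg adjustment over all genes tested. Calls needed an adjusted p under 0.05 and a log2 fold change of 0.5 or more in size. Normalized CPM are counts in 1000000 scaled library reads, log2 CPM for profiles use a prior count of 2, and CPM per kb use the summed exon length. No source says whether each library is 1 mouse, so p-values and intervals cover only the spread between these libraries. The alternatives were limma-voom (limma 3.58.1, the study's test), DESeq2 1.42.0, other scalings and filters, 2-group fits, a replicate block, genes free of opposite-strand overlap, a fold limit of 1 and leaving out libraries. The fit was also run on counts simulated from its own estimates, with changes of known size against spleen. Of 100 genes changed 2-fold, 5 were called at 24 hours and 14 at 72 hours. Of 100 changed 4-fold, 65 and 81 were called, and 4 and 6 unchanged genes were called. A missing call is therefore no sign of equal levels.

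The 9 genes and all lists were chosen with earlier results of these data known. The text names these 9, the gene overlapping them on the opposite strand, called genes of the lists (at most 3 per list and comparison, by adjusted p) and the 5 profiles closest to Clec7a. Other list genes given with values (Fcer1g, Bcl10, Malt1 and the neighbours on chromosome 6) were named outside this rule, after their values were seen. Promoters are from RefSeq, and protein sequences were not used here. Within a group, library pairs differed by 2.47 to 41.3 times the sampling noise (chi-square per degree of freedom, 19 pairs). Each library was counted as a sample, and this range does not show that each is a separate mouse. The lowest value was between spleen replicates 1 and 2, which differed from replicate 3 by 37.5 and 41.3. Calls over all genes at 24 hours (1218) were 575 and 611 without spleen replicate 1 or 2, and 1295 without replicate 3.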

Additional observations from a re-analysis of the deposited data

Results flagged for a closer look

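A single result was set apart for a closer look because the liver time points differed by a direct test. Clec12a was higher at 72 than at 24 hours by 2.01 on the log2 scale (edgeR, SE 0.51, adjusted p = 0.0258), with all 5 of the 72-hour libraries (18 to 26 reads) above all 4 of the 24-hour libraries (2 to 6 reads). Leaving out a library kept the direction in all 12 fits and gave 1.81 to 2.21, with adjusted p between 0.0138 and 0.0871. None of the 18 sets of 24-hour or 72-hour values of the 9 genes had a library that stood apart from the rest by Dixon's test at the 95% level, where chance marks about 1 in 20.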

How the results depend on the processing

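Of the 3 counts of called genes, that at 24 hours (3 of 8) was 2 to 4 under the other scalings, tests, filters and sets of genes (with limma-voom 2, Clec12a and Clec4a2, without Clec4n and Card9), that at 72 hours (3) was 1 without 72-hour replicates 1, 2 and 3 (an alternative chosen after seeing the data, as was leaving out 4 and 5) and 2 to 3 otherwise, and that between the time points (1) was 0 with limma-voom (3 of the 8 with an unadjusted p under 0.05). Leaving out each library in turn gave 1 to 4 at 24 hours, 1 to 4 at 72 hours and 0 to 2 between the time points (in the edgeR fits with 0, 3 or 4 of the 8 had an unadjusted p under 0.05).
Of 573 refits of the log2 differences of the 8 genes tested, 516 kept their direction and side of the threshold, 19 gained a call, 29 lost one and 9 reversed, all 9 in differences that had not been called. Clec7a, which was not tested, ranged over the refits from -1.05 to -0.81, 0.35 to 0.79 and 1.28 to 1.72. It had separated the time points in earlier work on these libraries, so these ranges are a description and no support. The reversed values were -0.13 (without spleen replicate 3) and -0.18 (without 24-hour replicate 1) for Clec5a and -0.00812 (limma-voom) and -0.14 (without 24-hour replicate 2) for Syk at 24 hours, where leaving out 1 library gave up to 0.23 for Clec5a and 0.19 for Syk. At 72 hours Card9 was 0.10 (without spleen replicate 1, with a lowest of -0.38 without spleen replicate 3) and 0.0725 (without 72-hour replicates 4 and 5). Between the time points Clec4n was -0.11 (without 72-hour replicates 1, 2 and 3), and Clec5a was -0.0371 and Syk -0.0114 (without 24-hour replicate 3), against up to 0.37 and 0.32 without another library. The causes were not tested.
The replicate numbers do not pair the libraries (correlation of same-numbered deviations -0.116 to 0.130 over 10 pairs). With a replicate block the counts were 3, 3 and 1, where Card9 was lost at 24 hours (adjusted p = 0.0955) and Clec4a2 gained (0.0333).
Over all genes, the calls (1218, 666 and 561) ranged from 601 to 1544, 169 to 1173 and 187 to 951 under the alternatives and from 575 to 1320, 314 to 835 and 182 to 796 without 1 library. The 601 and 187 are from genes free of opposite-strand overlap alone, where fewer genes were tested. With 16 reads of Clec12a and 27 of Clec4a2 over the 24-hour libraries, depth limits both.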
